A study of Mus musculus with 6 samples.

Results

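Spermatid transcription regulators are nuclear proteins that switch on the genes with which a round spermatid builds the acrosome, the flagellum and the compacted sperm nucleus. A group of 9 such genes, of the 36652 genes in the deposited table, was taken by symbol: Crem, Fhl5, Sox30, Rfx2, Rfx4, Tcfl5, Tbpl1, Taf7l and Brdt. All 9 were found, each as 1 gene. RNA had been sequenced from the whole testis of mice aged 8 weeks, in 3 Ccdc117ko and 3 WT libraries by their labels, to compare the genotypes. The labels give neither the allele nor the strain, and do not say whether each replicate was a separate mouse, so p-values cover only library-to-library spread, which may be technical.

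The haploid germ cell depends on transcription factors that differ from those of somatic cells. CREM binds cAMP response elements and activates protamine and transition protein genes, and in spermatids it works with the LIM-domain partner that Fhl5 encodes (also called ACT). RFX proteins bind X-box sequences upstream of ciliary and flagellar genes, SOX30 is an HMG-box factor without which mouse spermatids arrest at the round stage, and TBPL1, TAF7L and BRDT act on the general machinery and on acetylated chromatin. Their messages are made largely in germ cells. Their level in whole testis therefore moves both with the number of the cells that make them and with the RNA in each. These cannot be told apart in bulk samples.

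Libraries held 35791616 to 43461692 reads, and counts of replicates differed by more than sampling noise, with a chi-square per degree of freedom of 4.43 to 7. Ccdc117 itself had 3477.8, 3772.1 and 3908.2 normalized counts in the libraries labelled Ccdc117ko, against 3657.2, 3825.8 and 3930.8 in WT. These ranges overlapped (log2 fold change -0.03, limma adjusted p = 0.763), so the total count of the gene did not check the genotype labels. Normalized counts are reads that the authors scaled by a factor for each library. Fold changes are Ccdc117ko over WT on the log2(normalized count + 1) scale.

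Of the 9 regulators, 3 rose in Ccdc117ko testes at a limma adjusted p under 0.05 and 0 fell. None of the 9 was lower at an unadjusted p under 0.05, and voom on the recovered reads also called 3 higher and 0 lower. Crem, Fhl5 and Sox30 were 1.18, 1.19 and 1.14 times as high in Ccdc117ko as in WT. Among all 32783 genes tested, 3.70% were called higher and 3.10% lower, and among the 6732 genes averaging at least 1000 normalized counts, where all 9 regulators lie, 11.0% were called higher and 7.55% lower. That level was chosen after the values were seen. The median log2 fold change was 0.06 over the regulators and 0.0012 over all genes tested. Testing the 22878 genes averaging 10 or more normalized counts, a choice under which 8.35% of genes were called higher and 8.25% lower, added Rfx4 to the calls, giving 4 regulators higher and 0 lower. Values of the 3 libraries of each genotype did not overlap for 5 regulators, 4 of them higher and 1 lower in Ccdc117ko, against 27.0% of all genes tested in either direction. That share covers genes of all levels and was not computed among genes averaging at least 1000, so it is not matched to the regulators.

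**Figure D1:**
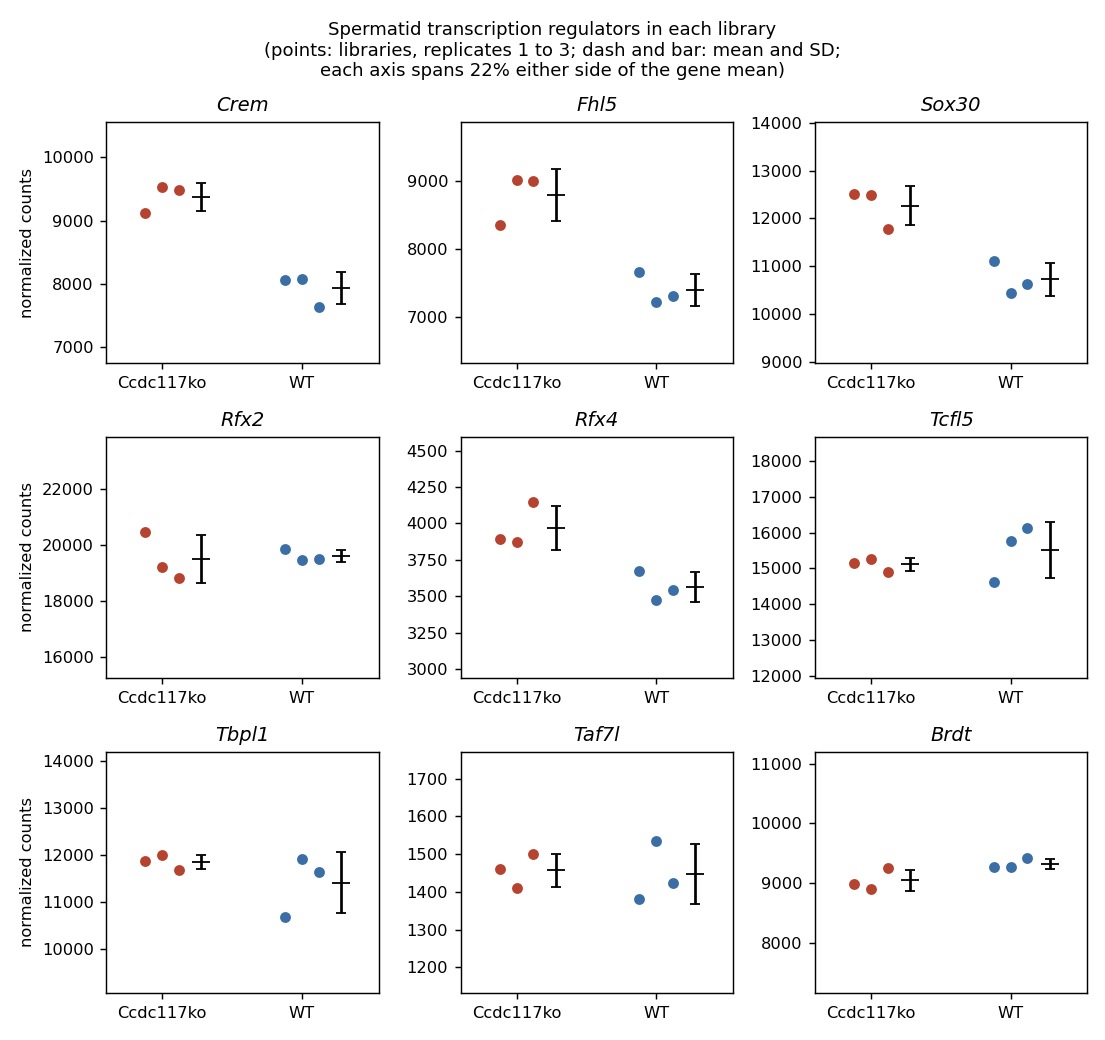
Normalized counts of the 9 regulators in each library, Ccdc117ko left of WT, with points for replicates 1 to 3 and a dash and bar for the mean and SD (n = 3). Each axis spans the same percentage around the mean of its gene and does not start at 0; Crem, Fhl5, Sox30 and Rfx4 lie higher in all Ccdc117ko libraries than in any WT library.

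Crem encodes the cAMP-responsive activator of the round spermatid program (mm10 chr18:3266048-3337748, minus strand). It had 9126.1, 9532.8 and 9482.2 normalized counts in Ccdc117ko testes, against 8071.9, 8082.2 and 7639.6 in WT testes. Every Ccdc117ko library lay above every WT library, with means of 9380 ± 222 in Ccdc117ko and 7931 ± 253 in WT (SD, n = 3 each). Crem rose by 0.24 on the log2 scale (SE 0.0375, limma adjusted p = 0.0173). The gene has 39 annotated transcripts, which include activators and repressors, and a count for the whole gene does not separate them. The call held with WT replicate 1 left out (limma adjusted p = 0.0444). It was lost without WT replicate 2 (0.0669) or 3 (0.0917), and without Ccdc117ko replicate 1 (0.0625), 2 (0.11) or 3 (0.0845), these also being limma adjusted p-values. The fits that lost it called 2 to 12 genes higher in all, against 1212 in the full fit and 789 without WT replicate 1. In them the log2 fold change of Crem was 0.22 to 0.26. Among genes averaging 10 or more the call held in all 6 fits with a library left out, at a limma adjusted p of at most 0.0213.

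Fhl5 encodes the LIM-only coactivator that binds CREM in spermatids (mm10 chr4:25199908-25242876, minus strand). Its normalized counts were 8351.6, 9020.6 and 9007.5 in Ccdc117ko testes, against 7654.1, 7213.9 and 7307.4 in WT testes. The lowest Ccdc117ko library stood above the highest WT library, and means were 8793 ± 383 in Ccdc117ko and 7392 ± 232 in WT (SD, n = 3 each). Fhl5 rose by 0.25 on the log2 scale (SE 0.0434, limma adjusted p = 0.0212), the largest of the 9 in this fit. Its call was lost once transcript length and GC content were corrected for, after which the log2 fold change was 0.14 (limma adjusted p = 0.0922), below Crem (0.25), Sox30 (0.25) and Rfx4 (0.23). Without WT replicate 2 the log2 fold change was 0.23 for Fhl5 and 0.26 for Crem. The call of Fhl5 held without WT replicate 1 (limma adjusted p = 0.0472) and was lost without WT replicate 2 (0.0821) or 3 (0.107), or Ccdc117ko replicate 1 (0.0603), 2 (0.122) or 3 (0.0971). The fits that lost it called 2 to 12 genes higher in all, and in them Fhl5 had a log2 fold change of 0.23 to 0.29. At a mean of at least 10 the call held in all 6 fits with a library left out, at a limma adjusted p of at most 0.0264.

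Within a library, the log2 of Fhl5 minus the log2 of its partner Crem averaged -0.09 in Ccdc117ko and -0.10 in WT. The 2 genotypes overlapped in this difference (exact permutation test, two-sided, p = 0.9). Crem minus Brdt averaged 0.05 in Ccdc117ko and -0.23 in WT, and Fhl5 minus Brdt -0.04 in Ccdc117ko and -0.33 in WT. Both differences were higher in all 3 Ccdc117ko libraries, with an exact permutation p of 0.1 each, the smallest that 3 against 3 allows. These were among 6 pairs computed, chosen after the values were seen.

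Sox30 encodes the HMG-box factor (mm10 chr11:45980310-46017994, plus strand). It had 12504.9, 12495.0 and 11789.0 normalized counts in Ccdc117ko testes, against 11115.9, 10442.2 and 10627.0 in WT testes. The genotypes did not overlap, with means of 12263 ± 411 in Ccdc117ko and 10728 ± 348 in WT (SD, n = 3 each). Sox30 rose by 0.19 on the log2 scale (SE 0.0396, limma adjusted p = 0.0324). Its call held without WT replicate 1 (limma adjusted p = 0.0494) and was lost without WT replicate 2 (0.109) or 3 (0.128), or Ccdc117ko replicate 1 (0.113), 2 (0.156) or 3 (0.0845). The fits that lost it called 2 to 12 genes higher in all, and in them Sox30 had a log2 fold change of 0.17 to 0.22. At a mean of at least 10 the call was lost without Ccdc117ko replicate 2 alone (limma adjusted p = 0.0534). Sox30 minus Tcfl5 within a library averaged -0.30 on the log2 scale in Ccdc117ko and -0.53 in WT (exact permutation test, two-sided, p = 0.1). This pair too was chosen after the values were seen, and no smaller p is possible with 3 against 3.

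The RFX members are winged-helix factors of ciliary and flagellar genes. Rfx4 (mm10 chr10:84756062-84906538, plus strand) had 3891.5, 3870.6 and 4144.0 normalized counts in Ccdc117ko testes, against 3675.6, 3473.3 and 3542.7 in WT testes. All 3 Ccdc117ko values were above all 3 WT values. The log2 fold change of 0.15 (SE 0.0431) did not pass the threshold over all genes tested (limma adjusted p = 0.074). It passed among genes averaging 10 or more (limma adjusted p = 0.0417), though in only 1 of the 6 fits with a library left out there. That was the fit without WT replicate 1 (0.0248), while the fits without WT replicates 2 and 3 gave 0.126 and 0.113, and those without Ccdc117ko replicates 1, 2 and 3 gave 0.07, 0.0839 and 0.146 (limma adjusted p). With the length and GC correction the change was 0.23 (limma adjusted p = 0.0151).

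Rfx2, the family member required for spermatid flagella in mice (mm10 chr17:56775897-56831013, minus strand), was the most abundant of the 9 in counts. Its normalized counts were 20463.8, 19228.2 and 18820.3 in Ccdc117ko testes, against 19867.1, 19462.7 and 19513.7 in WT testes. The WT range lay inside the Ccdc117ko range. The log2 fold change was -0.01 with a 95% interval of -0.10 to 0.08 (limma adjusted p = 0.933), so fold changes of 0.935 to 1.06 were within it. Rfx4 minus Rfx2 within a library averaged -2.30 on the log2 scale in Ccdc117ko and -2.46 in WT, without overlap (exact permutation test, two-sided, p = 0.1). That pair was also chosen after the values were seen, and no smaller p is possible with 3 against 3.

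Promoter sequences are shown for Fhl5, Sox30 and Rfx4, which lay higher in Ccdc117ko libraries, and for Rfx2, which did not. They run from 250 bases before to 50 after the first listed start, 5′ to 3′, from RefSeq on GRCm38.p6, at chr4:25242803-25243102 (minus strand), chr11:45980060-45980359 (plus strand), chr10:84755798-84756097 (plus strand) and chr17:56830959-56831258 (minus strand). The table matched 8 of the 9 regulators, with 10 starts; Crem had no entry. Capitals mark matches, on either strand, to 6 motifs. The cAMP response element was searched as TGACGTCA and in its shorter form, which overlaps it, as TGACG. One arm of the X-box bound by RFX proteins was searched as GTTGCC, and the SOX motif as ACAATG. The E-box of helix-loop-helix factors was searched as CACGTG. The TATA motif was searched as TATAAA.
Fhl5: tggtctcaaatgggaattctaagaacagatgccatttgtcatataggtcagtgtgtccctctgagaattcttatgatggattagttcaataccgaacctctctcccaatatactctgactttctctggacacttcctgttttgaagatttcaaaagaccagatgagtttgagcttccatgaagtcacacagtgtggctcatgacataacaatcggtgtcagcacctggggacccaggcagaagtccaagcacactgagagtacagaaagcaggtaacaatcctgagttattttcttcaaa
Sox30: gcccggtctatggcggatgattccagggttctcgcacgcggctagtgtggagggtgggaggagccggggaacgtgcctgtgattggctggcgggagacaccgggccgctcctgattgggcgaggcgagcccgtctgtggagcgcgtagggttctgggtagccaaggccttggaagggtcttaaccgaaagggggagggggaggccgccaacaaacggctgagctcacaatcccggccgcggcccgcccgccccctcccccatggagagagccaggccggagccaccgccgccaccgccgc
Rfx4: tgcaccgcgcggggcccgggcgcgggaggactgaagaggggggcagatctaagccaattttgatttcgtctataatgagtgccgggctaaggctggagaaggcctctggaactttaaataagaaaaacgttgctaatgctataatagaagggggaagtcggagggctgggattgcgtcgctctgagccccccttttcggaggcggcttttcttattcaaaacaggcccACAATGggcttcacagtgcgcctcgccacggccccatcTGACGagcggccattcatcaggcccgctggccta
Rfx2: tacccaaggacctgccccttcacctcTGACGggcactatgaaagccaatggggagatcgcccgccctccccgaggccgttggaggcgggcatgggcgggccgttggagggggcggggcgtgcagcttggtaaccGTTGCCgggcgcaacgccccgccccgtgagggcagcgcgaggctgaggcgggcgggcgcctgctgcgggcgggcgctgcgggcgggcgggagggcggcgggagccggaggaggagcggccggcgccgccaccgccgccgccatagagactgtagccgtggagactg

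Counted from the start site, the Rfx4 window held ACAATG from position -22 and TGACG from position 17. The Rfx2 window held TGACG from position -224 and GTTGCC from position -116. None of these letters were in the Fhl5 and Sox30 windows shown. Over all 32851 starts, TGACGTCA was present in 1.79%, TGACG in 20.8%, GTTGCC in 12.5%, ACAATG in 12.6%, CACGTG in 7.15% and TATAAA in 13.6%. Among the 10 starts of the regulators the counts were 0, 2, 1, 1, 2 and 1 in the same order, the CACGTG matches being in Brdt and Taf7l and the TATAAA match in Taf7l. Windows differed in base composition, with a GC content of 42.7% for Fhl5, 70% for Sox30, 57% for Rfx4 and 75.7% for Rfx2, against a median of 52.7% over all starts.

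Tcfl5 encodes a basic helix-loop-helix factor of spermatocytes and spermatids (mm10 chr2:180621956-180642708, minus strand). It had 15160.2, 15277.3 and 14901.0 normalized counts in Ccdc117ko testes, against 14627.7, 15758.9 and 16129.2 in WT testes. The Ccdc117ko values lay within the WT range, and the log2 fold change was -0.04 (95% interval -0.13 to 0.06, limma adjusted p = 0.667).

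Tbpl1 encodes a relative of the TATA-binding protein that mouse spermatids need (mm10 chr10:22703879-22731938, minus strand). Its normalized counts were 11868.4, 12004.2 and 11691.2 in Ccdc117ko testes, against 10680.7, 11925.9 and 11645.1 in WT testes. WT replicate 1 was the low library, and the others overlapped (log2 fold change 0.06, 95% interval -0.05 to 0.16, limma adjusted p = 0.531). Taf7l, an X-linked germ cell relative of the TFIID subunit TAF7 (mm10 chrX:134460118-134476490, minus strand), was the least abundant. It had 1460.1, 1411.5 and 1499.6 normalized counts in Ccdc117ko testes, against 1381.5, 1535.7 and 1423.9 in WT testes. Its genotypes overlapped (log2 fold change 0.01, 95% interval -0.11 to 0.14, limma adjusted p = 0.947).

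Brdt encodes the testis bromodomain protein that reads acetylated histones in meiosis and during histone removal (mm10 chr5:107331159-107387058, plus strand). It had 8983.2, 8899.7 and 9249.4 normalized counts in Ccdc117ko testes, against 9262.4, 9276.1 and 9419.3 in WT testes. Every Ccdc117ko library was below every WT library, by a margin that did not pass the threshold (log2 fold change -0.04, 95% interval -0.12 to 0.03, limma adjusted p = 0.479).

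**Figure D2:**
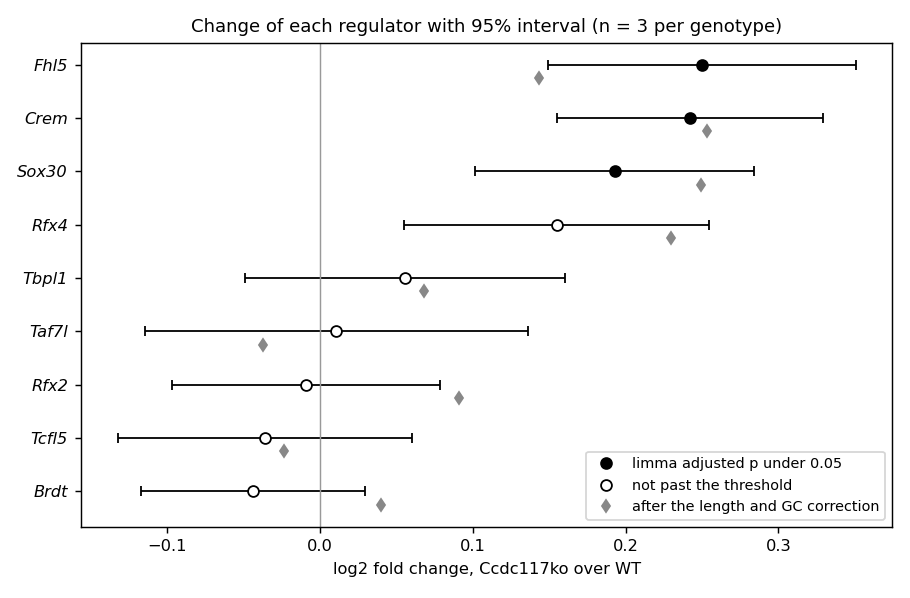
Log2 fold change of each regulator, Ccdc117ko over WT, as circles with 95% intervals from limma (n = 3 each), filled at an adjusted p under 0.05, and diamonds for the value after the length and GC correction. Filled circles are Fhl5 (0.25), Crem (0.24) and Sox30 (0.19); the diamond of Fhl5 stands at 0.14.

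In the authors' deposited table, 4 of the 9 regulators had an FDR under 0.05, as did 4233 of all 36652 genes. That share covers genes of all levels and was not computed among genes as abundant as the regulators. The authors' deposited table gave FDR values of 4.21e-08 for Crem, 2.57e-07 for Fhl5, 2.9e-05 for Sox30 and 0.00959 for Rfx4, by a test the table does not name.

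Levels between genes were compared per length, as RPKM (reads scaled to exon length and library depth). Fhl5 was the highest on this scale, at 191 ± 8.71 in Ccdc117ko and 162 ± 5.67 in WT (SD, n = 3 each). Tcfl5 (122 ± 1.71 in Ccdc117ko, 125 ± 5.75 in WT) and Sox30 (104 ± 3.53 in Ccdc117ko, 91.7 ± 3.29 in WT) followed. Tbpl1 had 92.3 ± 1.37 in Ccdc117ko and 89.4 ± 4.85 in WT. In this order neighbours did not overlap, except Sox30 and Tbpl1 in WT. Lower on the same scale were Rfx2 (68 ± 2.87 in Ccdc117ko, 68.7 ± 1.06 in WT) and Brdt (45 ± 0.875 in Ccdc117ko, 46.7 ± 0.209 in WT). Crem (40.5 ± 1.05 in Ccdc117ko, 34.5 ± 1.27 in WT), Rfx4 (21.4 ± 0.811 in Ccdc117ko, 19.3 ± 0.618 in WT) and Taf7l (16.5 ± 0.474 in Ccdc117ko, 16.5 ± 0.906 in WT) closed the order. The exon length is that of the merged exons of all annotated transcripts, so a gene with many exons that testis does not use, as Crem may have, is understated. Exons of Crem, Tbpl1 and Tcfl5 overlapped opposite-strand exons of Gm6225, Slc2a12 and Col9a3 over 472, 407 and 234 bases. The use of strand in counting is not given in the sources used here, so reads there could belong to either gene.

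Of 16 round spermatid markers, 10 rose and 0 fell, with a median log2 fold change of 0.34 against 0.06 over the 9 regulators. Every marker was detected in every library. Among genes averaging at least 1000 normalized counts, 11.0% were called higher and 7.55% lower. The list was chosen with earlier results of these data known. Of the 16, 13 lay above 0 and 3 below. Named after their values were seen, the 3 were Dpy19l2, Zpbp2 and Spata16, at -0.18, -0.02 and -0.03 (limma adjusted p = 0.153, 0.879 and 0.789). Dpy19l2 was lower in every Ccdc117ko library than in any WT library. Summed normalized counts of the 16 were 134675 to 138741 in Ccdc117ko and 118194 to 121778 in WT. Spaca1, Spaca4, Catsper4 and Txndc8, which encode proteins of the acrosome and the flagellar calcium channel, rose by 0.42, 0.46, 0.45 and 0.32 on the log2 scale (limma adjusted p = 0.0148, 0.0172, 0.0148 and 0.0124). Of 12 elongating spermatid markers, 2 rose (Prm3 by 0.24 and Tsga8 by 0.34, limma adjusted p = 0.0193 and 0.025) and 0 fell. With the length and GC correction Prm3 lost its call (0.12, limma adjusted p = 0.127) and Spem1, named after its values were seen, was called lower (-0.18, limma adjusted p = 0.0148). Of 12 pachytene spermatocyte markers, Cdc25c alone rose (0.31, limma adjusted p = 0.0229) and 0 fell.

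Each regulator was then set against the round spermatid markers, as its log2 minus the mean log2 of the 16 in the same library. This difference was -0.01 for Crem (Ccdc117ko minus WT, exact permutation test, two-sided, p = 0.7), -0.0039 for Fhl5 (p = 1.0, exact) and -0.06 for Sox30 (p = 0.2, exact). It was -0.10 for Rfx4, -0.20 for Tbpl1, -0.24 for Taf7l, -0.26 for Rfx2, -0.29 for Tcfl5 and -0.30 for Brdt. Each of these 6 was lower in all 3 Ccdc117ko libraries, at an exact permutation p of 0.1, the smallest that 3 against 3 allows. They are not separate results, since the same marker mean was subtracted from every regulator. That mean was 12.80 to 12.84 in Ccdc117ko and 12.52 to 12.62 in WT, so a regulator that did not change comes out lower. Against the 12 pachytene markers the difference was 0.21 for Crem (exact p = 0.1, without overlap), 0.21 for Fhl5 (exact p = 0.2) and 0.16 for Sox30 (exact p = 0.2). Among these 12, Hist1h1t had only 38.0, 60.1 and 88.4 normalized counts in WT. It weighs as much as any other in the mean log2 and widens the WT spread, and the mean without it was not taken. The part of cell number in these values was not tested.

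**Figure D3:**
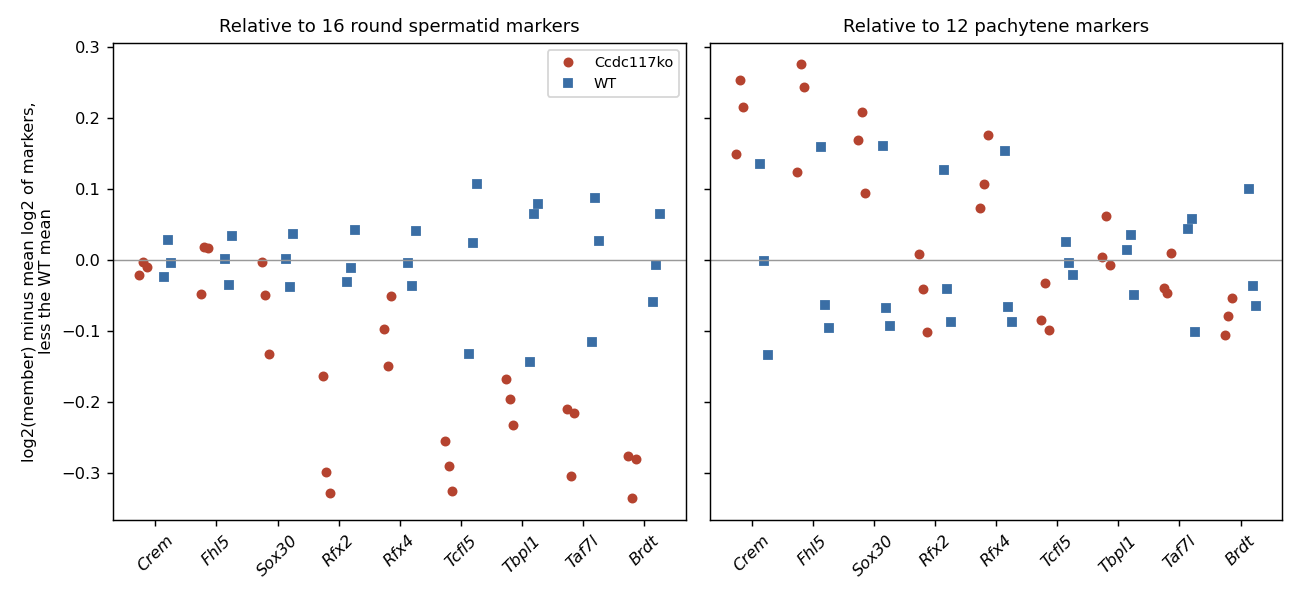
Log2 level of each regulator minus the mean log2 of 16 round spermatid markers (left) or 12 pachytene markers (right) in the same library, less the WT mean, with circles for Ccdc117ko and squares for WT libraries. On the left, Crem, Fhl5 and Sox30 overlap between genotypes, while the other 6 are lower in all Ccdc117ko libraries. The same marker mean, higher in Ccdc117ko, is subtracted from every regulator, so an unchanged regulator comes out lower.

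Of 20 genes of the CREB family and the protein kinase A pathway, 1 rose, 0 fell and 19 did not pass, with a median log2 fold change of -0.0002. The 1 was Creb3l4, a CREB-like factor of spermatids, with 13912 ± 465 normalized counts in Ccdc117ko and 11112 ± 609 in WT (SD, n = 3 each; log2 fold change 0.33, limma adjusted p = 0.0161). Of 7 genes known in mice to depend on CREM, 0 passed in limma in either direction (median log2 fold change 0.08, and -0.02 with the length and GC correction), and 2 had an unadjusted p under 0.05. These were Odf1, an outer dense fibre gene (log2 fold change 0.15, limma adjusted p = 0.0784, and 0.0262 among genes averaging 10 or more), and Ace, whose testis form is made in spermatids (0.08, limma adjusted p = 0.19, and 0.0178 with the length and GC correction). Both were named after their values were seen. Prm2, a protamine, had a change of 0.07 (log2, limma adjusted p = 0.507) and Tnp2, a transition protein, of 0.10 (limma adjusted p = 0.361), and both turned negative with the length and GC correction (-0.05 and -0.02). Of the other 4 FHL genes, Fhl1 fell by 0.36 (limma adjusted p = 0.0262) and 0 rose. Beside these list counts, 3.70% of all genes tested were called higher and 3.10% lower. At a mean of at least 1000 normalized counts it was 11.0% and 7.55%.

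Among 10 other RFX genes and their partners, 3 rose and 0 fell. For this list and the next, the shares over all genes tested were 3.70% higher and 3.10% lower. They were 11.0% and 7.55% at a mean of at least 1000 normalized counts. Rfx6 had 79.3 ± 1.47 normalized counts in Ccdc117ko and 45 ± 5.93 in WT (SD, n = 3 each), a rise of 0.81 on the log2 scale (limma adjusted p = 0.028). Rfx1 rose by 0.22 (limma adjusted p = 0.0388), as did Foxj1, a forkhead factor of motile cilia, by 0.18 (limma adjusted p = 0.0349). Of 23 genes of ciliary transport, a set of functions under RFX control in mice, 2 rose (Bbs5 by 0.28, Ift43 by 0.19) and 2 fell (Ift140 by 0.30, Ift122 by 0.17), with limma adjusted p-values of 0.0151, 0.0265, 0.023 and 0.037. The calls of Ift43, Ift140 and Ift122 were lost with the length and GC correction (limma adjusted p = 0.317, 0.0888 and 0.383).

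Counts in the next lists stand beside shares of 3.70% higher and 3.10% lower among all genes tested. At a mean of at least 1000 normalized counts the shares were 11.0% and 7.55%. Of 21 genes of TBP, TFIID and TFIIA tested, 2 rose and 0 fell, namely the TFIID subunit Taf13 (0.32, limma adjusted p = 0.0191) and the TFIIA subunit Gtf2a2 (0.22, limma adjusted p = 0.0238). Gtf2a2 lost its call with the length and GC correction (limma adjusted p = 0.0887). Of the 3 other BET genes, Brd3 fell by 0.18 (limma adjusted p = 0.0341) and 0 rose, and this call too was lost with that correction (-0.05, limma adjusted p = 0.431). Of 18 other chromatin genes of spermatids, Hils1, a linker histone variant, rose by 0.28 (limma adjusted p = 0.0128) and Bptf, a chromatin remodelling subunit, fell by 0.35 (limma adjusted p = 0.0193, lost with the correction at 0.0789). Of 20 transcription regulators of earlier germ cells, Mybl1, the activator of pachytene genes, fell to 1341 ± 22.4 normalized counts in Ccdc117ko, against 1739 ± 146 in WT (SD, n = 3 each; log2 fold change -0.37, limma adjusted p = 0.0206), and 0 rose.

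Markers of other cells were also counted. For comparison, 3.70% of all genes tested were called higher and 3.10% lower. At a mean of at least 1000 normalized counts these shares were 11.0% and 7.55%. Neither is matched to the levels of these lists. Of 12 Sertoli markers 6 fell, among them Kitl, Dhh, Inhbb and Gata4 (log2 fold change -0.40, -0.29, -0.38 and -0.24). With the length and GC correction 2 of the 12 were called lower, and Dhh, Inhbb and Gata4 lost their calls (limma adjusted p = 0.101, 0.0622 and 0.0804). The list had summed normalized counts of 18106 to 18951 in Ccdc117ko and 20194 to 21240 in WT. Of 12 spermatogonial markers 2 fell, Kit (-0.52) and Etv5 (-0.44), with sums of 5809 to 6230 in Ccdc117ko and 6659 to 6880 in WT. Early prophase markers were split, with Rec8 higher (0.28) and Dmc1 and Mei1 lower (-0.26 and -0.34), of 12; Mei1 lost its call with the length and GC correction (limma adjusted p = 0.104). Of 9 Leydig markers 3 rose and 2 fell, Star by 1.23 and Hsd3b1 by -0.90 being the furthest, and of 7 macrophage markers Mrc1 fell (-0.28), a call lost with that correction (limma adjusted p = 0.1). Their part in the regulators' values was not tested. Of the 45 list genes called, 0 held in limma in all 6 fits with a library left out, 36 held in all 6 at a mean of at least 10, and 31 held after the length and GC correction. Over all genes tested, fits with a library left out called 2 to 789 genes higher and 4 to 479 lower.

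**Figure D4:**
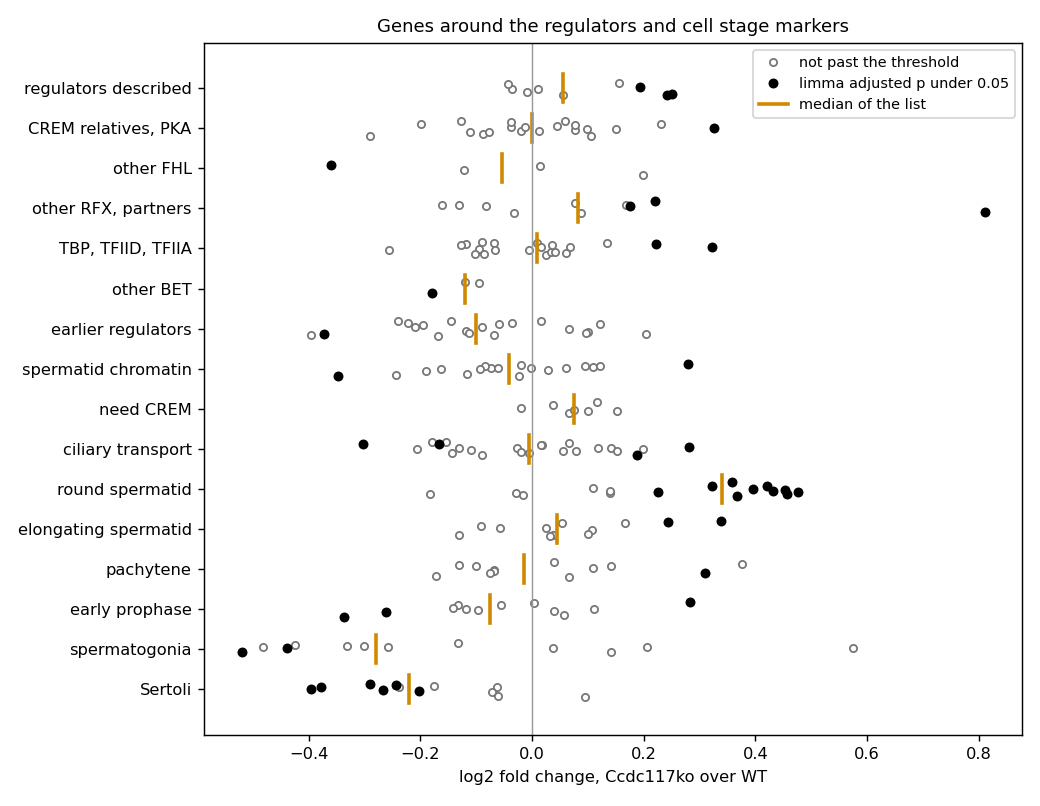
Log2 fold change, Ccdc117ko over WT, of each gene of the regulators, of the lists around them and of the germ cell and Sertoli marker lists, filled at a limma adjusted p under 0.05, with a bar for the list median. The round spermatid median stands at 0.34 and that of the regulators at 0.06.

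The genes whose log2 values followed Fhl5 most closely over the 6 libraries, among 12908 coding genes averaging at least 100 normalized counts, were Mex3c (Pearson r = 0.9985), Egr3 (0.9979) and Gm20831 (0.9963). All 6 libraries share the genotype difference, and 442 genes had r over 0.95. Mex3c and Egr3 rose by 0.23 and 0.31 on the log2 scale (limma adjusted p = 0.0305 and 0.0207). Reads of Gm20831 are uncertain, since 100% of its 50-base words occur in other genes.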

How the data were processed

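Per the labels' protocols, testis RNA was extracted with TRIzol and treated with DNase, and libraries were made with a kit for stranded mRNA. The submitters' processing notes name DESeq2, STAR and the build mm10 without versions. How they were used, how reads were counted and whether strand was used is not given in the sources used here. In the deposited file the authors gave 1 table of log2 values per library and gene, read here as log2(normalized count + 1) because 100% of low values were whole reads, within 0.01, in every library. The authors' deposited table also holds a p-value and an FDR per gene, used only where credited.

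Here limma-trend (limma 3.58.1, R 4.3.3) was fitted to the deposited log2 values with genotype as the only term, over 32783 genes averaging at least 0.5 normalized counts. Two-sided p-values were adjusted over all genes tested (Benjamini-Hochberg), with a threshold of 0.05. Single values were compared by exact permutation of the 6 libraries, without adjustment. Fits with a library left out kept the genes of the full fit. The script was checked on simulated data. Gene positions and exon lengths come from GENCODE on the same build.

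The regulators and gene lists were chosen with earlier results of these data known. Named were all 9 regulators, up to 4 called genes per list by adjusted p (or the 2 most abundant), Ccdc117, and the 3 genes most correlated with the regulator that rose most in this fit. Alternatives were other filters, a pseudocount of 5, upper-quartile scaling, a length and GC correction, voom on the recovered reads, and a replicate block.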

Additional observations from a re-analysis of the deposited data

How the results depend on the processing

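With 3 libraries per genotype, calls depended on single libraries and on the filter for low values, and every regulator had over 1000 reads in each library. The count of genes called higher by limma (1212) was 1911 at a mean of at least 10, and 2 to 789 with 1 library left out; that of genes called lower (1016) was 1887, 584 with the length and GC correction, and 4 to 479 with 1 library left out. Voom on the recovered reads called 1347 genes higher and 1078 lower. Regulators called higher (3) were 0 to 3 with 1 library left out. In combinations added after seeing the data, at a mean of at least 10, genes higher were 936 to 2041, genes lower 778 to 1980 and regulators higher 2 to 4 with 1 library left out, and genes lower were 934 with the length and GC correction. Applying the filter anew to the 5 remaining libraries, also added after seeing the data, gave 6 to 1065 genes higher and 11 to 718 lower. Regulators called higher were then 2 without Ccdc117ko replicate 1 (Crem and Fhl5), 3 without WT replicate 1 and 0 in the other 4 fits. Keeping the genes of the full fit, so that 1 choice changed at a time, was preferred to this form after its results were seen. The cause was not tested.

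Among fold changes, signs turned only for genes that were not called. Rfx2 was 0.015 with upper-quartile scaling, which moved the median of all genes to 0.0219, then 0.0908 with the length and GC correction and -0.0441 to 0.0163 with 1 library left out. With that correction Taf7l was -0.0369, Brdt 0.0401, Prm2 -0.0493 and Tnp2 -0.0226, and Taf7l was -0.0218 to 0.0545 with 1 library left out. Against pachytene in place of round spermatid markers, the regulators' differences were 0.2065 (Crem), 0.2142 (Fhl5), 0.1570 (Sox30), 0.1191 (Rfx4), 0.0199 (Tbpl1), -0.0249 (Taf7l), -0.0448 (Rfx2), -0.0716 (Tcfl5) and -0.0792 (Brdt).

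Deviations of same-numbered libraries from their genotype means did not move together, with correlations of -0.003, -0.004 and 0.006 over genes averaging 10 or more. This does not show whether such libraries shared a litter or batch, which the labels do not give. With a replicate block, 364 genes were called higher, 339 lower and 1 regulator, Crem, higher.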
